A study of Mus musculus with 10 samples.

Results

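The homeostatic microglia genes are 10 transcripts that mark resting microglia, the resident macrophages of the brain, and they were taken by name from the 35275 genes of the deposited table: P2ry12, P2ry13, Gpr34, Cx3cr1, Csf1r, Tmem119, Siglech, Fcrls, Sall1 and Olfml3. All 10 were found and all 10 passed the filter on low values, a mean of at least 0.5 FPKM (fragments scaled to gene length and library total). The study sequenced motor cortex RNA of 22-day-old C57BL/6 mice, 5 with a conditional knockout of membralin in astrocytes (Astro-mem KO, here KO) and 5 wild type (WT). Membralin is the product of Tmem259 and sits in the membrane of the endoplasmic reticulum. The labels name no Cre driver and no floxed allele, and they give both groups the same strain, age and tissue. The RNA is that of whole tissue, so the microglia of the KO mice are neither sorted nor, by the labels, deficient in membralin.

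Resting microglia survey the tissue with motile processes, and these genes serve that state. The receptors P2ry12, P2ry13, Gpr34 and Cx3cr1 sense nucleotides, lipids and a neuronal chemokine, Csf1r carries the survival signal of the lineage, and Sall1 is a transcription factor that maintains microglial identity. When microglia react to injury or disease, several of these transcripts are known to fall while genes of lysosomes, lipid handling and antigen presentation rise.

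The libraries held between 22968013 and 27567361 fragments in KO and between 22793058 and 28827871 in WT. The targeted gene, Tmem259, ranged over 16.9 to 26.2 FPKM in KO apart from the library labelled KO3, which had 34.4 FPKM, against 23.8 to 32.4 FPKM in WT (limma adjusted p = 0.275). The library labelled KO3 was thus above every WT library, and KO5, at 26.2 FPKM, lay within the WT range. In whole tissue this level does not settle whether the label is right. The log2 fold changes are also given without the library labelled KO3. Markers of the olfactory bulb moved with genotype: the summed level of 10 such genes was 39.0 to 127 FPKM in KO and 10.7 to 63.7 FPKM in WT. Of those 10 genes, Th, Sp8, Trh and Calb2 rose, and Cdhr1, second in level to Calb2, did not pass (limma adjusted p = 0.125). Among the genes used to check the tissue, Gad1 and Gad2, of inhibitory neurons, and Aqp4, of astrocytes, rose.

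Across all genes, limma on log2(FPKM + 1) called 1926 of 14497 tested genes at an adjusted p under 0.05, 1417 higher and 509 lower in KO. Among the 10 homeostatic genes 2 rose, Sall1 and Olfml3, 0 fell and 8 did not pass. The background is 13.3% of all tested genes called, 9.77% higher and 3.51% lower. At an unadjusted p under 0.05, 3 of the 10 were higher and 0 lower. The exact permutation test per gene gave the same counts, with 4363 of the 14497 tested genes under that level. Without the library labelled KO3, Csf1r rose as well and the count was 3 higher and 0 lower, where 26% of all genes were called, 19.6% higher and 6.36% lower. Csf1r and Olfml3 have their lowest KO value in that library, so this count is no independent test. The groups did not overlap for 0 of the 10 genes, against 7.55% of all tested genes. The median log2 fold change was 0.12 over the 10 genes and 0.08 over all tested genes. With median-of-ratios scaling of the libraries 10.7% of all genes were called, 608 higher (4.19%) and 945 lower (6.52%). Of the 10 homeostatic genes 0 then passed in limma, 2 were higher and 1 lower at an unadjusted p under 0.05, and their median was 0.03. limma voom on fragments recovered from the FPKM called 11.7% of all genes and 0 of the 10, with 2 higher and 1 lower at an unadjusted p under 0.05. The share of all tested genes at that unadjusted level is not given for these limma fits, so the unadjusted counts are not read as a result. In whole tissue, fewer or more microglia and less or more RNA per microglial cell cannot be told apart.

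The 2 genes that rose and P2ry12, the gene with the lowest fold change, have start sites of different composition, shown here as the 250 bases before the start (RefSeq, GRCm38.p6, minus strand, read 5′ to 3′) with each CpG dinucleotide in capitals. The Olfml3 stretch is chr3:103738002-103738251, that of the most upstream of 3 Sall1 start sites is chr8:89044163-89044412 and that of P2ry12 is chr3:59262986-59263235.
Olfml3: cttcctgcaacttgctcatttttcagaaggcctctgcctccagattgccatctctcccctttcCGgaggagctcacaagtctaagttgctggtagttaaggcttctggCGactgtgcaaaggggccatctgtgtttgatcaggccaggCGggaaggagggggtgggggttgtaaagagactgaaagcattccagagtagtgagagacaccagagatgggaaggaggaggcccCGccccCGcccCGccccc
Sall1: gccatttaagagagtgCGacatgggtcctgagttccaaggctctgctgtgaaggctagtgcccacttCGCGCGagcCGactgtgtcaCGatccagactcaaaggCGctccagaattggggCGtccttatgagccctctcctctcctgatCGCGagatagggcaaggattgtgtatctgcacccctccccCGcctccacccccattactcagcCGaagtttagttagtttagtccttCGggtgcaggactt
P2ry12: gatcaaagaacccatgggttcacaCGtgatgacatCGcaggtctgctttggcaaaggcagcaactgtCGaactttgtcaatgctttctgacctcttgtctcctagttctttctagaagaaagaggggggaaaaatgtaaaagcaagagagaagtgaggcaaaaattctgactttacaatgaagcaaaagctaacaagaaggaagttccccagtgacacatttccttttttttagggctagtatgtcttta

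The stretches hold 6 CpG in Olfml3, 13 in Sall1 and 3 in P2ry12. RefSeq windows of 300 bases, from 250 before a start to 50 after it, were matched for 7 of the 10 genes (9 windows, 3 of them of Sall1). The Sall1 windows held 18, 27 and 39 CpG, the last of these more than 95.6% of all 32851 windows, and the other 6 windows held between 2 (Siglech) and 8 (Olfml3). Of those 6, only that of Olfml3 was above the median of all windows, 7 CpG. The motif GAGGAAGT, a purine-rich sequence bound by the myeloid factor PU.1, was searched on both strands and was in 0 of the 9 windows and in 3.2% of all windows. Its core GGAAGT, which the longer motif contains and which was chosen after the sequences were seen, was in 4 of the 9 windows, those of P2ry12, Fcrls, Siglech and the Sall1 start with 39 CpG, and in 23.8% of all windows. Promoters and fold changes were not related by any test.

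**Figure D1:**
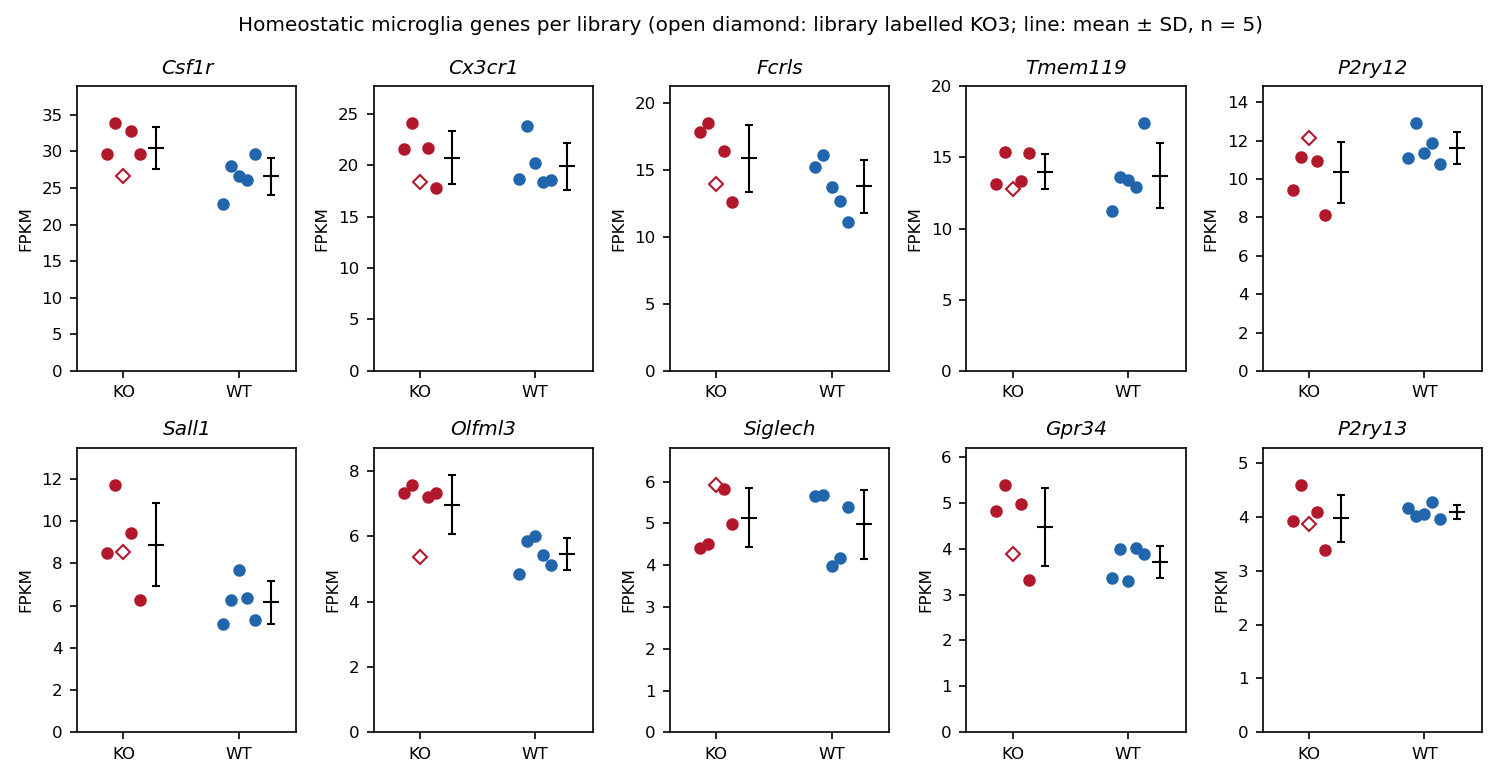
FPKM of each homeostatic microglia gene in every library, KO left and WT right, with the mean ± SD of 5 libraries per group and the library labelled KO3 as an open diamond. Olfml3 shows 4 KO libraries between 7.21 and 7.58 FPKM above the highest WT value of 6.02 FPKM, and P2ry12 shows 2 KO libraries, at 8.12 and 9.42 FPKM, below every WT library.

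Per length of transcript, the order of the mean levels over the 10 libraries was Csf1r (28.6 FPKM), Cx3cr1 (20.3), Fcrls (14.8), Tmem119 (13.9), P2ry12 (11.0), Sall1 (7.52), Olfml3 (6.21), Siglech (5.05), Gpr34 (4.09) and P2ry13 (4.03). Csf1r was above Cx3cr1 in each library, although the ranges of every pair of neighbours in this order overlapped over the 10 libraries. KO2 was the highest library for 7 of the 10 genes, and WT1 was the lowest for 4 and KO5 for 3. The sum of the 10 was 109 to 137 FPKM in KO and 102 to 120 FPKM in WT. The fewest fragments behind any of these values were 157, for Gpr34.

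Among the receptors that sense soluble signals, none passed. P2ry12 (ENSMUSG00000036353, chr3:59216271-59262831, minus strand, mm10) encodes the ADP receptor that steers microglial processes to sites of injury. It measured 9.42, 11.2, 12.1, 10.9 and 8.12 FPKM in KO1 to KO5, against 11.1, 12.9, 11.4, 11.9 and 10.8 FPKM in WT1 to WT5. KO5 and KO1 lay below every WT library, the library labelled KO3 was the highest of KO, and the groups overlapped. The means were 10.4 ± 1.59 FPKM in KO and 11.6 ± 0.826 FPKM in WT (SD, n = 5 each), a log2 fold change of -0.16 (95% interval -0.36 to 0.04, limma adjusted p = 0.245). Without the library labelled KO3 it came to -0.22 (limma adjusted p = 0.0895), and with a covariate for the olfactory bulb score in that fit to -0.36 (limma adjusted p = 0.0597). It was below 0 in all 32 alternative settings run and passed in 0 of them.

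P2ry13, the neighbouring gene (ENSMUSG00000036362, chr3:59207896-59210882, minus strand), encodes a related ADP receptor. It measured 3.92, 4.59, 3.86, 4.09 and 3.38 FPKM in KO1 to KO5, against 4.15, 4.01, 4.05, 4.27 and 3.95 FPKM in WT1 to WT5. The KO values straddled the WT values, with 1 library above all of them and 3 below. The SD was 0.437 FPKM in KO and 0.125 FPKM in WT (n = 5 each), from 196 to 309 fragments per library. The log2 fold change was -0.04 (95% interval -0.19 to 0.11, limma adjusted p = 0.735). Both genes lie inside Med12l, a Mediator subunit gene on the opposite strand, and because the library kit is not stated to keep strand, reads of the 3 genes cannot be told apart where they overlap. Med12l averaged 4.23 ± 0.4 FPKM in KO and 4.88 ± 0.269 FPKM in WT (SD, n = 5 each; limma adjusted p = 0.103).

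Gpr34 (ENSMUSG00000040229, chrX:13632089-13640858, plus strand) encodes a receptor for lysophosphatidylserine and lies inside Cask on the opposite strand. It measured 4.81, 5.39, 3.88, 4.97 and 3.32 FPKM in KO1 to KO5, against 3.36, 3.99, 3.30, 4.02 and 3.88 FPKM in WT1 to WT5. KO1, KO2 and KO4 lay above every WT library and the other KO libraries within the WT range. The log2 fold change was 0.21 (95% interval -0.02 to 0.43, limma adjusted p = 0.193). Dropping the library labelled KO3 gave 0.24 (limma adjusted p = 0.122). Cask averaged 17.8 ± 0.731 FPKM in KO and 19.1 ± 1.66 FPKM in WT (SD, n = 5 each; limma adjusted p = 0.342).

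Cx3cr1 (ENSMUSG00000052336, chr9:119901616-120068283, minus strand) encodes the receptor of fractalkine, a chemokine made by neurons. It measured 21.6, 24.1, 18.4, 21.7 and 17.8 FPKM in KO1 to KO5, against 18.6, 23.8, 20.2, 18.3 and 18.6 FPKM in WT1 to WT5. The ranges nearly coincided. The log2 fold change was 0.05 (95% interval -0.15 to 0.25, limma adjusted p = 0.726), and its sign turned under median-of-ratios scaling. Its annotated span overlaps Wdr48, Gorasp1, Ttc21a, Csrnp1 and Xirp1, of which Wdr48 and Ttc21a are on the opposite strand; Wdr48 had the highest level of these, 14.01 ± 1.06 FPKM in KO and 13.6 ± 0.412 FPKM in WT (SD, n = 5 each).

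Csf1r (ENSMUSG00000024621, chr18:61105572-61132149, plus strand), the receptor of the growth factors CSF1 and IL34 on which microglia depend, was the most abundant of the 10. It measured 29.7, 33.9, 26.7, 32.8 and 29.6 FPKM in KO1 to KO5, against 22.8, 27.96, 26.6, 26.0 and 29.6 FPKM in WT1 to WT5. KO1, KO2 and KO4 lay above every WT library, with KO1 ahead of WT5 by a margin smaller than the rounding shown, and all 5 KO libraries lay above the WT mean. The means were 30.5 ± 2.86 FPKM in KO and 26.6 ± 2.55 FPKM in WT (SD, n = 5 each), a log2 fold change of 0.19 (95% interval 0.02 to 0.36) that did not pass over all genes (limma adjusted p = 0.112). Without the library labelled KO3 it was 0.24 and passed (limma adjusted p = 0.0372), and it was then 0.19 with a covariate for the olfactory bulb score and did not pass (limma adjusted p = 0.277). That library has the lowest KO value of Csf1r, so leaving it out raises the KO mean and is no independent test. Hmgxb3, which overlaps the end of Csf1r on the opposite strand, was lower in all 5 KO libraries than in any WT library, 10.9 ± 0.231 FPKM in KO and 11.4 ± 0.231 FPKM in WT (SD, n = 5 each), and did not pass (limma adjusted p = 0.342).

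**Figure D2:**
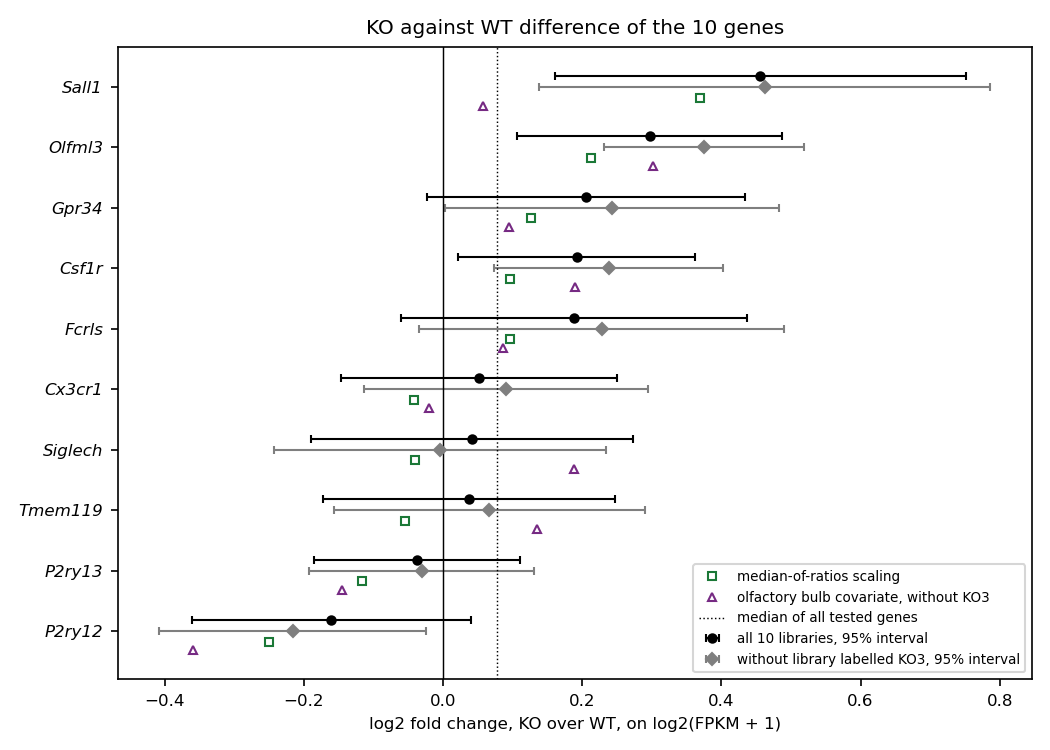
Log2 fold change of KO over WT on log2(FPKM + 1) for the 10 genes, with all libraries and without the library labelled KO3 (points with 95% intervals), with median-of-ratios scaling and with a covariate for olfactory bulb markers without that library (open symbols); the dotted line is the median of all tested genes. Sall1 at 0.46 and Olfml3 at 0.30 stand at the top and P2ry12 at -0.16 at the bottom, and without the library labelled KO3 Sall1 is at 0.06 and Olfml3 at 0.30 with the covariate, against 0.46 and 0.38 with no covariate.

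The surface proteins Tmem119, Siglech and Fcrls showed no difference that passed. Tmem119 (ENSMUSG00000054675, chr5:113793729-113800516, minus strand), a transmembrane protein used to tell microglia from other macrophages, measured 13.2, 15.4, 12.8, 13.4 and 15.3 FPKM in KO1 to KO5, against 11.3, 13.6, 13.4, 12.9 and 17.4 FPKM in WT1 to WT5. The KO range lay within the WT range, and the log2 fold change was 0.04 (95% interval -0.17 to 0.25, limma adjusted p = 0.82). Siglech (ENSMUSG00000051504, chr7:55768178-55778925, plus strand), a sialic-acid-binding lectin, measured 4.41, 4.52, 5.93, 5.81 and 4.995 FPKM in KO1 to KO5, against 5.65, 5.67, 3.98, 4.17 and 5.40 FPKM in WT1 to WT5. The KO range and the WT range overlapped over most of their width, and the log2 fold change was 0.04 (95% interval -0.19 to 0.27, limma adjusted p = 0.815). Both signs turned under median-of-ratios scaling.

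Fcrls (ENSMUSG00000015852, chr3:87250758-87263738, minus strand) encodes a scavenger-type Fc receptor-like protein. It measured 17.8, 18.5, 13.99, 16.5 and 12.6 FPKM in KO1 to KO5, against 15.2, 16.1, 13.8, 12.7 and 11.1 FPKM in WT1 to WT5. KO1, KO2 and KO4 lay above every WT library, the same libraries as for Gpr34 and Csf1r. The log2 fold change was 0.19 (95% interval -0.06 to 0.44, limma adjusted p = 0.271). A covariate for the olfactory bulb score brought it to 0.05 (limma adjusted p = 0.889), and to 0.09 without the library labelled KO3 as well (limma adjusted p = 0.776). With the library labelled KO3 left out the log2 fold changes were -0.03 for P2ry13, 0.09 for Cx3cr1, 0.07 for Tmem119, -0.004 for Siglech and 0.23 for Fcrls, and the lowest limma adjusted p of these was 0.18, for Fcrls.

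Sall1 (ENSMUSG00000031665, chr8:89027248-89044162, minus strand), the zinc finger transcription factor of microglial identity, had the largest fold change of the 10. It measured 8.47, 11.7, 8.55, 9.42 and 6.25 FPKM in KO1 to KO5, against 5.11, 6.24, 7.70, 6.37 and 5.33 FPKM in WT1 to WT5. All KO libraries but KO5 lay above every WT library, the library labelled KO3 included. The means were 8.88 ± 1.97 FPKM in KO and 6.15 ± 1.03 FPKM in WT (SD, n = 5 each), a 1.44-fold difference with a log2 fold change of 0.46 (SE 0.14, 95% interval 0.16 to 0.75, limma adjusted p = 0.0459; two-sided exact permutation p = 0.0238, where the smallest possible is 0.00794). Adjusted over all genes the exact permutation p was 0.123, not past the threshold, and the lowest of any gene was 0.105, so that test called 0 genes. In the fit without the library labelled KO3 it was also 0.46 (limma adjusted p = 0.0399). The call was lost without KO1, KO2, KO4, WT1, WT2, WT4 or WT5, with log2 fold changes of at least 0.36 and limma adjusted p up to 0.11 in the fits that leave out 1 library, and with median-of-ratios scaling (0.37, limma adjusted p = 0.0944).

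From lowest to highest, Sall1 put the libraries in the same order as the olfactory bulb score, the mean log2(FPKM + 1) of the 10 bulb genes, with the exception of WT1 and WT5, which changed places. Omp, the marker of the olfactory nerve, measured 5.92, 10.5, 7.95, 8.89 and 0.406 FPKM in KO1 to KO5, against 0.27, 0.261, 3.26, 2.95 and 0.228 FPKM in WT1 to WT5. With a covariate for the olfactory bulb score the log2 fold change of Sall1 was 0.04 (limma adjusted p = 0.858), and 0.06 in the same fit without the library labelled KO3 (limma adjusted p = 0.775). Over all genes limma with that covariate called 0%, with 2630 genes at an unadjusted p under 0.05, and 8.79% without the library labelled KO3, and 0 of the 10 homeostatic genes in either fit. Genotype and bulb markers are partly confounded in these libraries, and their separate parts in the Sall1 difference cannot be told apart.

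Olfml3 (ENSMUSG00000027848, chr3:103733700-103738001, minus strand) encodes a secreted olfactomedin-like glycoprotein that microglia express. It measured 7.33, 7.58, 5.38, 7.21 and 7.32 FPKM in KO1 to KO5, against 4.85, 5.86, 6.02, 5.43 and 5.13 FPKM in WT1 to WT5. The library labelled KO3 lay within the WT range and the other KO libraries above every WT library. The means were 6.96 ± 0.897 FPKM in KO and 5.46 ± 0.489 FPKM in WT (SD, n = 5 each), a 1.28-fold difference with a log2 fold change of 0.30 (SE 0.09, 95% interval 0.11 to 0.49, limma adjusted p = 0.0441; two-sided exact permutation p = 0.0317, or 0.134 adjusted over all genes, not past the threshold). Once the library labelled KO3 was left out, KO averaged 7.36 ± 0.154 FPKM (SD, n = 4) with a log2 fold change of 0.38 (limma adjusted p = 0.00235), and it passed in all 9 fits that left out that library and a further one. Because that library has the lowest KO value, leaving it out raises the KO mean, and this is no independent test. The call was lost without any 1 of the other 9 libraries when the library labelled KO3 stayed in (limma adjusted p up to 0.106) and with median-of-ratios scaling (0.21, limma adjusted p = 0.0935).

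With a covariate for the olfactory bulb score the log2 fold change of Olfml3 was 0.24 (limma adjusted p = 0.336), and 0.30 in that fit once the library labelled KO3 was dropped (limma adjusted p = 0.0533). Whether the covariate changed Sall1 more than Olfml3 was not tested.

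**Figure D3:**
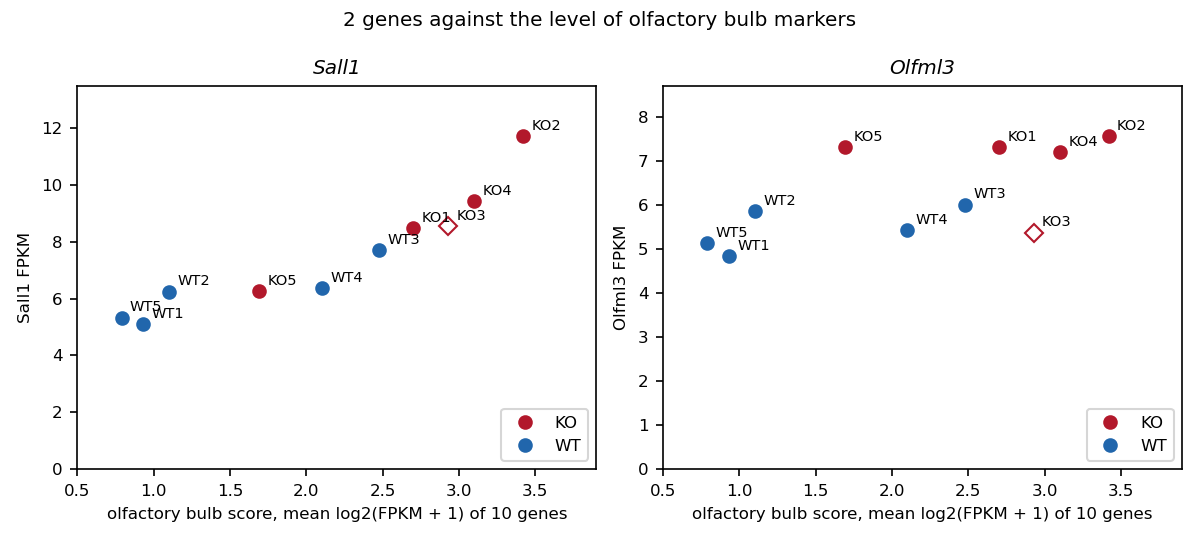
FPKM of Sall1 (left) and Olfml3 (right) in each library against the olfactory bulb score, the mean log2(FPKM + 1) of 10 bulb markers, KO in red and WT in blue, the library labelled KO3 as an open diamond. Sall1 climbs with the score through both groups to 11.7 FPKM in KO2, and Olfml3 is between 7.21 and 7.58 FPKM in the KO libraries other than KO3, with scores of 1.69 to 3.42, and between 4.85 and 6.02 FPKM in WT, with scores of 0.79 to 2.48.

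Genes that mark microglia and other myeloid cells without belonging to the resting state stood higher in KO. Of 16 pan-microglial genes 9 rose and 0 fell, with a median log2 fold change of 0.33, and 13 rose without the library labelled KO3. That library had the lowest mean log2(FPKM + 1) of these genes in KO, 2.67, so leaving it out is no independent test. Without it 26% of all tested genes were called, 19.6% higher. When KO2, KO4 or WT1 was left out instead, each fit called 2 genes over all tested genes and 0 in any of the lists. Ctss, a lysosomal cysteine protease, averaged 35.2 ± 9.56 FPKM in KO and 19.4 ± 2.46 FPKM in WT, and Cd68, a lysosomal membrane glycoprotein, 8.32 ± 2.29 FPKM in KO and 4.74 ± 0.697 FPKM in WT (SD, n = 5 each; limma adjusted p = 0.019 and 0.0346). Fcer1g, an adaptor of Fc receptors, and Lyn, a kinase downstream of them, also rose, with log2 fold changes of 0.59 and 0.34. Coro1a, with Ctss the most abundant of the list, had a log2 fold change of -0.07 and did not pass (limma adjusted p = 0.473). With median-of-ratios scaling 3 of the 16 rose and with limma voom 4. With a covariate for the olfactory bulb score 0 of the 16 passed in limma, and 2, Ctss and Cd68, when the library labelled KO3 was dropped as well. The list includes lysosomal genes and adaptors as well as lineage markers, so its level is not a count of microglia.

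Of 11 ligands and partners of the receptors among the 10 homeostatic genes 2 rose and 0 fell, with a median log2 fold change of 0.10. Over all tested genes 13.3% were called and the median was 0.08, so this count is not read as a result about the 11. Both calls, Csf1 and Tyrobp, were lost with median-of-ratios scaling (limma adjusted p = 0.0918 and 0.0575), with limma voom and with a covariate for the olfactory bulb score. That covariate called 0 of all tested genes. With it and without the library labelled KO3, 1 of the 11 rose and 1 fell. Csf1, a ligand of Csf1r, averaged 5.7 ± 1.04 FPKM in KO and 4.19 ± 0.34 FPKM in WT (SD, n = 5 each), a log2 fold change of 0.35 (limma adjusted p = 0.0447), while Il34, its other ligand, averaged 20.4 ± 2.2 FPKM in KO and 21.2 ± 1.81 FPKM in WT (SD, n = 5 each; limma adjusted p = 0.692). Tyrobp, a signalling adaptor of myeloid receptors, averaged 13.9 ± 3.97 FPKM in KO and 8.18 ± 1.63 FPKM in WT (SD, n = 5 each; limma adjusted p = 0.0372). Cx3cl1, the fractalkine ligand of Cx3cr1, had a log2 fold change of -0.22 (limma adjusted p = 0.219) and fell without the library labelled KO3, where it was -0.33 (limma adjusted p = 0.0244). That library had the highest summed level of the 11 in KO, 573 FPKM, so leaving it out is no independent test. Without it 2 of the 11 rose and 1 fell, where 26% of all tested genes were called. Abhd12, which degrades the ligand of Gpr34 and with Cx3cl1 had the highest level, had a log2 fold change of 0.09 (limma adjusted p = 0.309).

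The TGF-beta pathway and the transcription factors that maintain microglia moved in both directions. Of 19 such genes 4 rose and 2 fell, with a median log2 fold change of 0.14. The count was 7 higher and 2 lower without the library labelled KO3, where 26% of all tested genes were called. It was 0 without KO2, KO4 or WT1. With median-of-ratios scaling 2 rose and 2 fell and the median was 0.05, with Spi1 and Irf8 no longer past the threshold (limma adjusted p = 0.065 and 0.0674). With a covariate for the olfactory bulb score 0 passed, as over all tested genes. With that covariate and without the library labelled KO3, 4 rose and 1 fell. Tgfbr2, a TGF-beta receptor chain, averaged 7.04 ± 0.852 FPKM in KO and 5.15 ± 0.421 FPKM in WT (SD, n = 5 each; limma adjusted p = 0.0198). The factors Bhlhe41, Spi1 and Irf8 rose by 0.35, 0.40 and 0.39 on the log2 scale. Mef2c fell by 0.48 and Smad3, a mediator of TGF-beta signals, fell by 0.22 on the log2 scale. Mef2c, at 81.4 ± 16.9 FPKM in KO and 112 ± 5.5 FPKM in WT (SD, n = 5 each), is known to be abundant in cortical neurons as well as in microglia. Mef2a, second to it in level, did not pass (limma adjusted p = 0.222).

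Of 30 other genes reported as homeostatic in microglia 25 were tested, and 5 rose and 1 fell, with a median log2 fold change of 0.16. The count was 10 higher and 2 lower without the library labelled KO3, where 26% of all tested genes were called. It was 0 without KO2, KO4 or WT1. With median-of-ratios scaling 2 rose and 1 fell, and with limma voom 3 rose and 2 fell. With a covariate for the olfactory bulb score 0 passed, as over all tested genes. With that covariate and without the library labelled KO3, 5 rose and 0 fell. Rgs10, a regulator of G-protein signals, averaged 20.1 ± 3.71 FPKM in KO and 13.01 ± 1.52 FPKM in WT (SD, n = 5 each; limma adjusted p = 0.0186). Sparc, a matrix protein that astrocytes also make, rose by 0.58 on the log2 scale, Pros1, a ligand of phagocytic receptors, by 0.44, the potassium channel Kcnk13 by 0.35 and Tmem173 (STING) by 0.26. Slc2a5, the fructose transporter of microglia, averaged 1.08 ± 0.293 FPKM in KO and 1.79 ± 0.299 FPKM in WT (SD, n = 5 each) and fell by 0.43 on the log2 scale (limma adjusted p = 0.0296). Arhgap5, next to Sparc in level, had a log2 fold change of -0.05 and did not pass (limma adjusted p = 0.477).

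Disease-associated microglia are a state in which homeostatic genes are known to be low. Of 24 genes of that state 21 were tested, and 14 rose and 0 fell, with a median log2 fold change of 0.51. The RNA is that of whole tissue, so which cells carry these rises is not known. Of the 21, 18 rose when the library labelled KO3 was dropped, where 26% of all tested genes were called. The count was 0 without KO2, KO4 or WT1 and 9 with median-of-ratios scaling. It was 0 with a covariate for the olfactory bulb score and 11 with that covariate once the library labelled KO3 was dropped. Lyz2 (lysozyme) averaged 5.69 ± 2.28 FPKM in KO and 1.27 ± 0.21 FPKM in WT (SD, n = 5 each; limma adjusted p = 0.018). Ctsz, a lysosomal protease, Spp1 (osteopontin) and B2m, the light chain of MHC class I, had log2 fold changes of 0.75, 0.95 and 0.90. Apoe and Fth1, the most abundant of the list, did not pass (limma adjusted p = 0.358 and 0.947). These lists share genes, Tyrobp among them, and were chosen with earlier results of these data known.

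**Figure D4:**
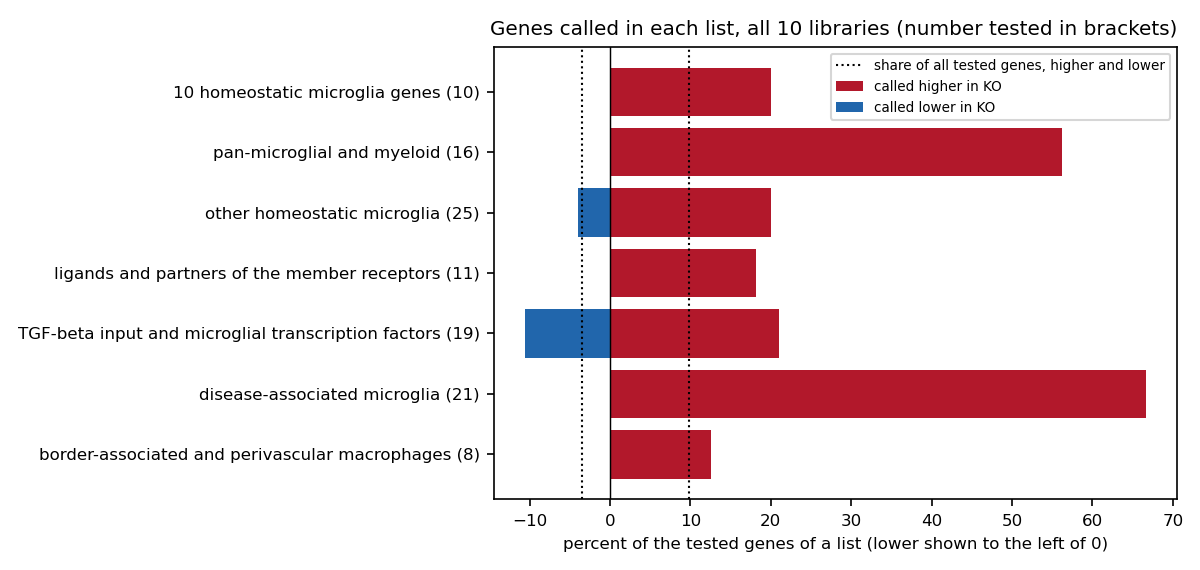
Percent of the tested genes of each list that limma called higher in KO (red, to the right) and lower in KO (blue, to the left), with the number tested in brackets and dotted lines at the share of all tested genes, 9.77% higher and 3.51% lower. The bars of disease-associated (14 of 21) and pan-microglial genes (9 of 16) are longer than that of the 10 homeostatic genes (2 of 10), a difference that was not tested.

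Markers of other immune cells were low. Of 12 genes of border-associated macrophages 8 were tested and 1, Folr2, rose, at 1.14 ± 0.282 FPKM in KO and 0.454 ± 0.197 FPKM in WT (SD, n = 5 each; limma adjusted p = 0.0205); the most abundant, Stab1 and Mrc1, did not pass. Over all tested genes 9.77% rose. The summed level of the 12 was 12.1 to 15.5 FPKM in KO and 9.52 to 11.9 FPKM in WT. Of 10 monocyte and neutrophil genes only S100a8 passed the filter, at a mean of 0.446 FPKM in KO and 0.579 FPKM in WT, S100a9 was next in level, and the sum of the list was 0.758 to 2.46 FPKM in KO and 0.329 to 2.45 FPKM in WT. Of 10 lymphocyte genes Cd4 and Trbc2 were tested and did not pass, the sum was 4.49 to 8.76 FPKM in KO and 1.94 to 7.13 FPKM in WT, and Cd3d was listed at 0 in all WT libraries and at up to 0.0284 FPKM in KO. Mki67 and Top2a, the only 2 of 8 cell cycle genes past the filter, rose, to 1.02 ± 0.223 and 1.38 ± 0.35 FPKM in KO, against 0.614 ± 0.127 and 0.734 ± 0.0857 FPKM in WT (SD, n = 5 each). With a covariate for the olfactory bulb score, Folr2, Mki67 and Top2a did not pass (limma adjusted p = 0.176, 0.271 and 0.177). The part of these cells in the differences above was not tested.

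The genes whose log2(FPKM + 1) was most like the mean of the 10 over the 10 libraries were Fcgr1, the high-affinity IgG receptor of myeloid cells (Pearson r = 0.968), 2810021J22Rik (0.943), Zhx1 (0.942), Pbx2 (0.937) and Susd1 (0.925). These were picked as the highest of all tested genes, so the values are a description. None of the 5 passed between KO and WT; Fcgr1 had a log2 fold change of 0.33 (limma adjusted p = 0.148).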

How the data were processed

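Total RNA of motor cortex was made into NEBNext Ultra libraries, per the labels' protocols. The authors deposited FPKM per gene and library with gene coordinates and lengths, per the file headers. Per the submitters' processing notes mm10 and DESeq2 were involved, in roles not stated; which aligner, counter and annotation were used is not stated either. FPKM times gene length gave whole fragments for 100% of values, within 0.02 of a whole number. Groups came from the sample titles, and no library was left out. Of 35275 identifiers 34490 matched GENCODE release M21, which was used for overlaps.

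The comparison of KO with WT used limma 3.58.1 (R 4.3.3; lmFit, eBayes with a variance trend) on log2(FPKM + 1) over the 14497 genes whose mean reached 0.5 FPKM. Tests were two-sided with Benjamini-Hochberg adjustment over all of them, and genes were called at an adjusted p under 0.05. The log2(FPKM + 1) scale understates changes of low genes. Exact permutation tests covered 252 assignments of libraries. Nothing but the number in its title ties a library to a mouse, and p-values measure the spread between libraries. The smallest chi-square per gene among 45 pairs of libraries was 7.22, so no 2 libraries agreed within sampling noise. Covariate scores are means of log2(FPKM + 1).

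The 10 genes and the lists were chosen with earlier results of these data known. Named are all 10 genes; from each list every called gene if 8 or fewer, otherwise the 4 with the lowest p in each direction, and the 2 most abundant; genes that overlap 1 of the 10; and the 5 most alike. Il34, Omp and Cd3d were chosen after their values were seen. Alternatives covered the pseudocount, filter, scaling, variance model, library weights, voom on recovered fragments, a replicate block, Y-linked, bulb and pan-microglial covariates, the threshold, an exact test per gene and libraries left out; the bulb covariate without the library labelled KO3 was added after seeing the data. Simulated counts were used to check the limma step. Some results of the tissue check are not reported here.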

Additional observations from a re-analysis of the deposited data

Results flagged for a closer look

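The library labelled KO3, with 5.38 FPKM of Olfml3, stood apart from the other KO libraries, which lay between 7.21 and 7.58 FPKM. The same library had the highest summed level of the ligands and partners of the receptors among the KO libraries, 573 FPKM, where the others lay between 507 and 522 FPKM. In 42 groups of 5 libraries examined for a sample apart from the rest, 2 were found, and chance gives about 1 in 20.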

How the results depend on the processing

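Over all genes the count of 1926 was 465 with no filter on low values, 3557 with a weight per library, 3546 at an adjusted p under 0.1, 0 with the bulb covariate and 2 to 3763 with 1 library left out, the lowest without WT1, KO2 or KO4 and the highest without the library labelled KO3; 2415 to 3423 were called when that library and a further one were left out, and 1275 without it and with the bulb covariate. Of all tested genes 1646 were called with no variance trend and 2017 with the Y-linked covariate. The 10 genes gave 0 calls with no filter, median-of-ratios scaling, no variance trend, voom and the bulb covariate with or without the library labelled KO3. They gave 1 (Sall1) with the Y-linked covariate, 0 to 3 with 1 library left out and 1 to 5 with the library labelled KO3 and a further one left out. In those fits with 0 calls, 0 to 3 of the 10 were higher and 0 or 1 lower at an unadjusted p under 0.05. With the bulb covariate 2630 of all tested genes were under that level, and for the other fits the share is not given. The other lists gave 44 calls in limma, 11 with no filter, 70 with weights, 0 with the bulb covariate, 0 to 64 with 1 library left out and 48 to 66 with the library labelled KO3 and a further one left out.

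Both the pan-microglial covariate and the exact permutation test per gene gave 0 calls over all genes, 0 of the 10 and 0 in the other lists, with 379 and 4363 genes at an unadjusted p under 0.05. The pan-microglial score, 2.67 to 3.09 in KO and 2.37 to 2.65 in WT, separates the groups, and the lowest adjusted exact p was 0.105, so neither bears on how stable a call is.

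With the replicate number as a block 1271 genes were called over all genes, 1 of the 10 (Sall1; Olfml3 had a limma adjusted p of 0.0824) and 41 in the other lists. Deviations of same-numbered libraries correlated at 0.138, 0.139 and 0.114 for 3 numbers and at -0.043 and -0.057 for the other 2, and 2 of 5 numbers matched best with their own. These values do not settle whether same-numbered libraries share a litter or batch, which the labels do not state.

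Signs turned for fold changes that did not pass. Tmem119 was -0.055 with median-of-ratios scaling, -0.043 with voom and -0.187 with the pan-microglial covariate. Cx3cr1 was -0.042, -0.032 and -0.177 in the same settings, -0.051 with the bulb covariate and -0.020 in that fit without the library labelled KO3. Siglech was -0.041 with median-of-ratios scaling and -0.053 with voom, and Csf1r was -0.11 and Gpr34 -0.15 with the pan-microglial covariate. With 1 library left out, or the library labelled KO3 and a further one, the log2 fold changes ran from -0.087 to 0.031 for P2ry13, -0.026 to 0.150 for Tmem119, -0.0023 to 0.169 for Cx3cr1 and -0.072 to 0.085 for Siglech. The causes were not tested. P2ry12, Sall1, Fcrls and Olfml3 kept their signs in all 32 settings run.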
